A study of Mus musculus with 20 samples.

Results

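The comparison described here is that of livers exposed to an antibody to ACBP, the acyl-CoA binding protein encoded by Dbi, with livers exposed to an IgG control, in mice on the MCD diet, which lacks methionine and choline. Its members were all genes whose mean normalized count over both groups was at least 3, which held for 19720 of the 54325 genes in the table. The MCD anti-ACBP group consisted of C57BL/6 mice on the MCD diet that received an anti-ACBP/DBI antibody from Fred Hutch Antibody Technology. The MCD IgG group, its control, consisted of C57BL/6 mice on the same diet that received an IgG from Bioxcell. The labels name no genetic change in these mice and give their state as NASH, non-alcoholic steatohepatitis, so a healthy liver is not part of the comparison. Each group had 5 libraries of messenger RNA from whole liver, and the labels give no sex, age, dose, sampling time, length of diet or batch. C57BL/6 mice on regular chow, given as healthy, received the same agents and form the groups chow anti-ACBP and chow IgG, which are used only where the antibody effect is compared between diets. The labels list samples without saying that each came from its own animal, so p-values measure the spread between these samples, which may be technical.

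ACBP is a small protein that binds long-chain acyl-CoA esters inside cells and moves them between enzymes and membranes. It is also released from cells, and outside the cell it acts as a signal that stimulates appetite and restrains autophagy, the route by which cells degrade their own contents in lysosomes. Hepatocytes that lack methionine and choline cannot make enough phosphatidylcholine to export triglyceride in lipoproteins, and a liver on this diet accumulates fat, recruits macrophages and lays down matrix.

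Group means, log2 fold changes and standard errors (SEs) are those of the authors' deposited table throughout. A gene is said to have risen or fallen with the antibody when its adjusted p was under 0.05. Adjusted p-values from 0.001 up are the deposited ones, and smaller ones, which the table rounds, were recomputed from the fold change and its SE. Values written as a ± b are a log2 fold change of anti-ACBP over IgG and its SE. Of the members, 31 had no adjusted p, which left 19689 tested genes. The spread between single libraries within a group enters only through the SE, since the table holds means over the 5 libraries of each group. The fold change column ends at -5 and 5, and 16 members sat at the lower end and 9 at the upper end. Just above the minimum level were Gm49714, Gm25291 and Sult2b1, at means of 3.0002, 3.0007 and 3.0018 normalized counts. Just under it were Dazl, Gm9910 and Gm49932, at 2.9994, 2.9987 and 2.9985.

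In all, 6241 of the 19689 tested genes (31.7%) differed between the groups. Rises outnumbered falls at means of 1000 normalized counts or more, and falls outnumbered rises below that level. With anti-ACBP 2962 genes rose (15%) and 3279 fell (16.7%), so that 52.5% of the changed genes were lower. Among genes that changed at least 2-fold, 630 rose (3.2%) and 1501 fell (7.62%), and among those that changed at least 4-fold, 152 rose and 415 fell. The middle of the distribution hardly moved, with a median log2 fold change of 0.02 and quartiles at -0.36 and 0.31. The split depended on the level of the gene. Of the 463 tested genes with a mean of 10000 normalized counts or more, 211 rose and 42 fell, while of the 4831 genes between 10 and 100 normalized counts 440 rose and 980 fell. Between 1000 and 10000 normalized counts 1246 of 4458 genes rose and 571 fell. Between 100 and 1000 normalized counts 971 of 6389 genes rose and 1508 fell. The median SE was 0.11 in the highest class and 0.70 in the class between 3 and 10 normalized counts, where 7.67% of 3548 genes passed. Protein-coding genes passed in 36.2% of 15308 cases and long noncoding RNAs in 18.1% of 2335. The median level was 12.5 normalized counts for long noncoding RNAs and 437 for protein-coding genes.

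**Figure D1:**
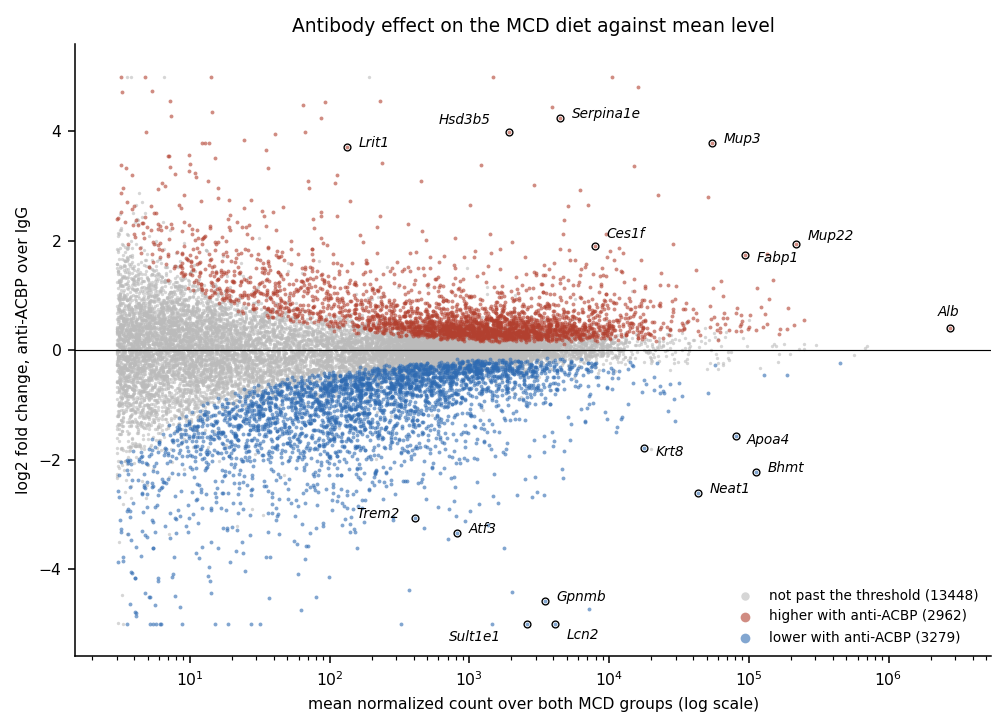
Mean normalized count of each tested gene over both MCD groups (log scale) against its log2 fold change, anti-ACBP over IgG. Coloured points passed the test, 2962 higher and 3279 lower, grey points did not, and circles mark named genes, with Alb far to the right and Lcn2 and Sult1e1 at the bottom.

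The group columns summed to 39398190 normalized counts with anti-ACBP and 34621779 with IgG. Setting both columns to the same total moves every log2 fold change down by 0.19, and under that scaling 1391 genes rose (7.06%) and 5454 fell (27.7%), so that 79.7% of the changed genes were lower. The split between rises and falls therefore has to be read with the scaling, which touches small rises, small falls and genes that barely moved. For a gene list whose rises or falls change by over 1.5 times with it, or whose balance or median changes direction, the members that rose and those that fell relative to column totals follow in brackets. Counts of every list are to be read beside the shares over all tested genes, 15% higher and 16.7% lower as reported, and beside those of genes at a like level. The largest gains between the columns belonged to a few abundant hepatocyte genes, most of them for secreted proteins. Albumin, Alb, stood at 3118589 normalized counts with anti-ACBP and 2348593 with IgG, which is 16.1% of the difference of the totals, and rose by 0.41 ± 0.11 (adjusted p = 0.00143). The 10 genes that gained most in normalized counts gained 38.9% of that difference together, and the major urinary proteins as a family, some of them among the 10, gained 12%. The 10 genes that lost most stood at -11.5% of it. These shares are of the net difference, to which many other genes contributed. Alb no longer passed the test relative to column totals.

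Besides Alb, the 10 genes with the largest gain in normalized counts all encode proteins that hepatocytes make in bulk. Mup22 and Mup20, major urinary proteins that carry pheromones, stood at 344461 normalized counts with anti-ACBP and 89667 with IgG, and at 156682 with anti-ACBP and 71151 with IgG. Serpina3k and Serpina1c, secreted protease inhibitors, rose by 1.76 ± 0.24 and 1.28 ± 0.14. The intracellular fatty acid carrier Fabp1 stood at 144507 normalized counts with anti-ACBP and 42988 with IgG (1.75 ± 0.17, adjusted p = 3.00e-22). Transthyretin, Ttr, the main protein of high-density lipoprotein, Apoa1, and the broad protease inhibitor Pzp rose by 0.78 ± 0.12, 0.55 ± 0.091 and 0.93 ± 0.095, and Mup3 completes the set. Losses in normalized counts were led by a metabolic enzyme and not by an inflammatory gene. Bhmt, which uses betaine to remethylate homocysteine, stood at 39261 normalized counts with anti-ACBP and 184863 with IgG (-2.24 ± 0.30, adjusted p = 1.75e-12). The intestinal-type apolipoprotein Apoa4 followed with 40498 with anti-ACBP and 120285 with IgG (-1.57 ± 0.22), then fetuin A, Ahsg, with 415547 with anti-ACBP and 485980.4 with IgG (-0.23 ± 0.087). The nuclear long noncoding RNA Neat1, the scaffold of paraspeckles, stood at 12099 normalized counts with anti-ACBP and 74389.5 with IgG (-2.62 ± 0.23, adjusted p = 9.91e-28). The haem carrier Hpx, the haemoglobin carrier Hp, the ornithine aminotransferase Oat, the keratin Krt8 and the autophagy receptor Sqstm1 also stood among the 10 largest losses, with log2 fold changes of -0.46 ± 0.10, -0.45 ± 0.16, -1.29 ± 0.25, -1.79 ± 0.13 and -1.11 ± 0.17. The last of the 10 was Gm10925, a gene without a known role, at -0.78 ± 0.20.

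Ranked by fold change among genes at a mean of 100 normalized counts or more, the 15 highest held 6 major urinary proteins, and the 15 lowest held macrophage, epithelial and stress-induced genes. The pseudogene Serpina4-ps1 stood at 2964 normalized counts with anti-ACBP and 2.47 with IgG, the widest ratio in the group, with an SE of 1.04 on a log2 fold change at the upper end of 5. Lrit1, a leucine-rich repeat membrane protein known from the retina, had 248 with anti-ACBP and 18.8 with IgG (3.71 ± 0.23), and Slc22a28, an organic anion transporter gene, 203 with anti-ACBP and 22.01 with IgG (3.20 ± 0.33). Mup17 and the unclassified transcript Gm45178 rose by 3.09 ± 0.66 and 3.05 ± 0.45. Mup19, Mup7, Mup16, Mup3, Mup14, Serpina1e, Ugt2b38, Hsd3b5, Chrna4 and Elovl3 make up the rest, and the plot of group means gives their levels. Plaur, the urokinase receptor of migrating leukocytes, and C5ar1, the receptor of the complement fragment C5a, had 27.6 with anti-ACBP and 276 with IgG, and 25.5 with anti-ACBP and 255 with IgG. Pls1, an actin bundling protein of brush borders, had 24.4 with anti-ACBP and 288 with IgG. Lcn2, Ly6d, Sprr1a, Sult1e1, Gpnmb, Mmp12, Ubd, Lgals3, Cdkn1a, Atf3 and Ccl2 were also among the 15 lowest. Mup19 and the first 4 of these sat at an end of the fold change column, so their ratio of means was larger than the column shows. Reads from near-identical copies (Mup, Serpina1, Ces1, Cyp2, Ugt and globin genes) can be split between genes by the counting, so values of single copies are uncertain.

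**Figure D2:**
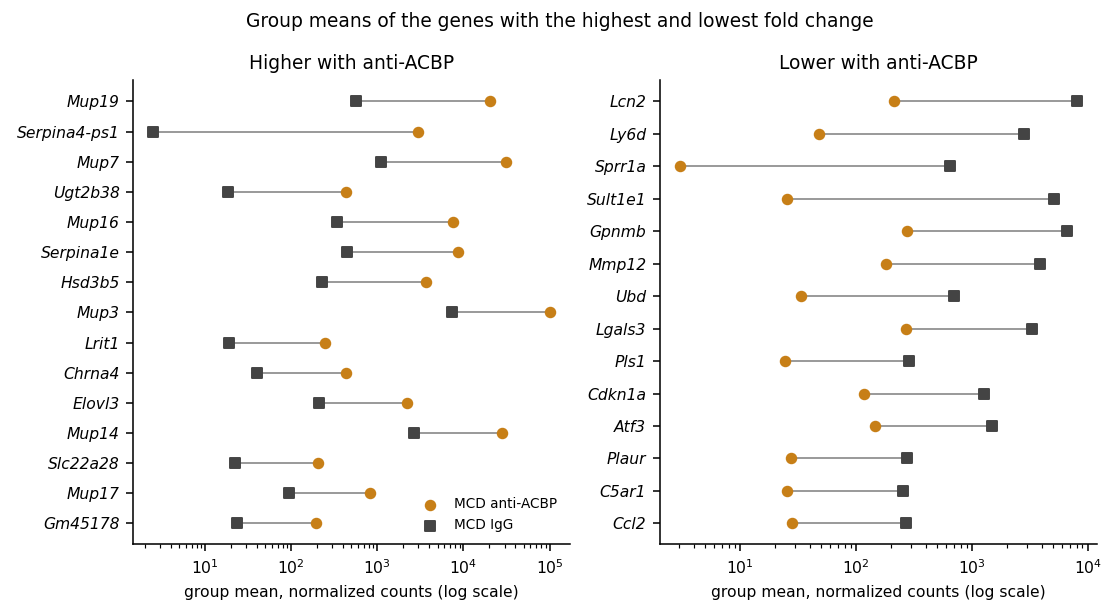
Group means in normalized counts (log scale) of the 15 genes with the highest fold change and 14 of the 15 with the lowest, MCD anti-ACBP as circles and MCD IgG as squares, without error bars since the table holds means only. Circles lie right of squares for every gene of the left panel and left of them for every gene of the right panel, and Serpina4-ps1 and Sprr1a have the longest lines.

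By the absolute log2 fold change over its SE, the measure that weighs size against replicate spread, the 10 leading genes mixed macrophage and hepatocyte transcripts. For genes at an end of the fold change column, the ranking and the recomputed p-values used 5 or -5, which can lower their place. Sult1e1, whose log2 ratio of group means was -7.59 with an SE of 0.40, entered at -5 and is not among the 10. Lilr4b, an inhibitory receptor of myeloid cells, stood at 168 normalized counts with anti-ACBP and 1258 with IgG (-2.90 ± 0.18, adjusted p = 1.83e-54). The carboxylesterases Ces1f and Ces1e, which hydrolyse esters and triglycerides in the endoplasmic reticulum, rose by 1.91 ± 0.094 and 1.70 ± 0.097, and the glucuronosyltransferase Ugt2b5 by 1.19 ± 0.075. Gpnmb, Lcn2, Mup3, Trem2, Itgax and Lrit1 were the other members of this set. The reverse case, large SEs at high levels, marks genes whose libraries differed within a group. Gm28438, Rps27 and Zbtb16 had SEs of 2.42, 0.85 and 0.84 and Myc, the growth-promoting transcription factor, 0.71, with group means of 1401 with anti-ACBP and 1352 with IgG. Cyp2a4, a steroid hydroxylase that is higher in females, had 8904 with anti-ACBP and 31311 with IgG and still did not pass (-1.81 ± 0.83, adjusted p = 0.0835), and Acot3, an acyl-CoA thioesterase, had 2177 with anti-ACBP and 2839 with IgG (-0.38 ± 0.80). The remaining members of these 10, Serpina4-ps1, Hsd3b5, Mup19 and Mup7, passed with SEs from 0.69 to 1.04.

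Dbi itself was higher in the antibody group, with 23709 normalized counts with anti-ACBP and 13686 with IgG (0.79 ± 0.097, adjusted p = 1.12e-14). The antibody acts on the protein, so this transcript does not check its action. Of the 8 tested genes on the list of Dbi, other genes with an acyl-CoA binding domain and the binding partner Tspo, 5 rose and 1 fell, and 3 rose and 2 fell relative to column totals. Acbd5, which tethers peroxisomes to the endoplasmic reticulum, had 9134 with anti-ACBP and 6098 with IgG (0.58 ± 0.087), and Eci2, an enoyl-CoA isomerase of peroxisomes and mitochondria, 13918 with anti-ACBP and 7625 with IgG (0.87 ± 0.19). Acbd6 and Acbd4 rose by 0.26 ± 0.093 and 0.28 ± 0.11. The testis-type paralog Dbil5 fell, at the low level of 4.29 with anti-ACBP and 15.2 with IgG (-1.85 ± 0.48), and the Golgi protein Acbd3 did not pass (-0.25 ± 0.12) but fell relative to column totals. Tspo, the mitochondrial outer membrane protein to which ACBP binds, stood at 2664 with anti-ACBP and 2692 with IgG (-0.02 ± 0.099) and did not pass. Acbd6 and Acbd4 no longer passed the test relative to column totals.

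The labelled tissue was borne out by its markers. Of the 20 hepatocyte markers all were members, and 14 of 20 tested members rose, 1 fell and 5 did not pass (7 and 2 relative to column totals), with a summed level in normalized counts of 5712656 with anti-ACBP and 4579832 with IgG. These markers are abundant, and of all 463 tested genes at a mean of 10000 normalized counts or more 211 rose and 42 fell. Apoh, Fgb and Ambp, all plasma proteins of hepatocyte origin, rose by 0.81 ± 0.10, 0.64 ± 0.089 and 0.58 ± 0.085, and Ahsg was the member that fell. In whole liver, fewer cells of a type and less RNA per cell cannot be told apart, which applies to every cell type named below. Among the lists of other cell types, the pan-macrophage markers summed to 11128 with anti-ACBP and 30664 with IgG, monocyte markers to 1285 with anti-ACBP and 5076 with IgG and activated stellate cell markers to 5673 with anti-ACBP and 15031 with IgG, each over 2-fold lower in the antibody group. Sinusoidal endothelial markers summed to 19959 with anti-ACBP and 19167 with IgG, and B and plasma cell markers to 17142 with anti-ACBP and 16135 with IgG. The B and plasma cell list includes Xbp1 and Sdc1, which hepatocytes also express, so its sum does not measure B cells alone. The highest mean of a single member on that list was 9570 with anti-ACBP and 8555 with IgG. Of the neutrophil markers 6 of 13 lay under the minimum level, with Camp or Ly6g listed at 0 in a group.

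Genes of the unfolded protein response and genes of the integrated stress response, both of which answer stress of the endoplasmic reticulum, gave opposite counts. On the list of the unfolded protein response, the factors that fold, modify and export proteins in that compartment, 18 of 32 tested members rose, 0 fell and 14 did not pass (8 and 4 relative to column totals). The background was 15% higher and 16.7% lower over all genes tested, and the median of the list was 0.31. More abundant genes rose more often, with 1246 of 4458 genes between 1000 and 10000 normalized counts higher and 571 lower. Means of the list ran from 171 to 68085 normalized counts with anti-ACBP. Of the 2510 tested genes on any list, 598 rose and 701 fell. On the list of ATF4 and the integrated stress response, which slows translation and induces amino acid genes, 1 of 29 tested members rose, 9 fell and 19 did not pass (0 and 11 relative to column totals), with a median of -0.38. Derl3, which helps retrotranslocate misfolded proteins, had 171 with anti-ACBP and 56.5 with IgG (1.59 ± 0.22), Dnajc3, a co-chaperone that restrains the kinase PERK, 11242 with anti-ACBP and 8048 with IgG (0.48 ± 0.089), and Sel1l, an adaptor of the degradation complex, 5904 with anti-ACBP and 4554 with IgG (0.37 ± 0.077). Hspa5, the chaperone BiP and the most used reporter of this response, did not pass, with 35153 with anti-ACBP and 34337 with IgG (0.03 ± 0.10). Xbp1, its transcription factor, rose by 0.42 ± 0.15. Opposite to these, Atf3 stood at 145 normalized counts with anti-ACBP and 1479 with IgG (-3.35 ± 0.27), the pseudokinase Trib3 at 513 with anti-ACBP and 2477 with IgG (-2.27 ± 0.29) and the cystine importer Slc7a11 at 19.5 with anti-ACBP and 116 with IgG (-2.56 ± 0.32). Ddit3, the transcription factor CHOP, fell by 0.95 on the log2 scale (SE 0.26), while Atf4, whose control is mainly translational, had -0.07 ± 0.19 and did not pass. The single member that rose was Ppp1r15b, which dephosphorylates eIF2alpha, with 0.39 ± 0.089. Xbp1 and Ppp1r15b no longer passed the test relative to column totals.

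**Figure D3:**
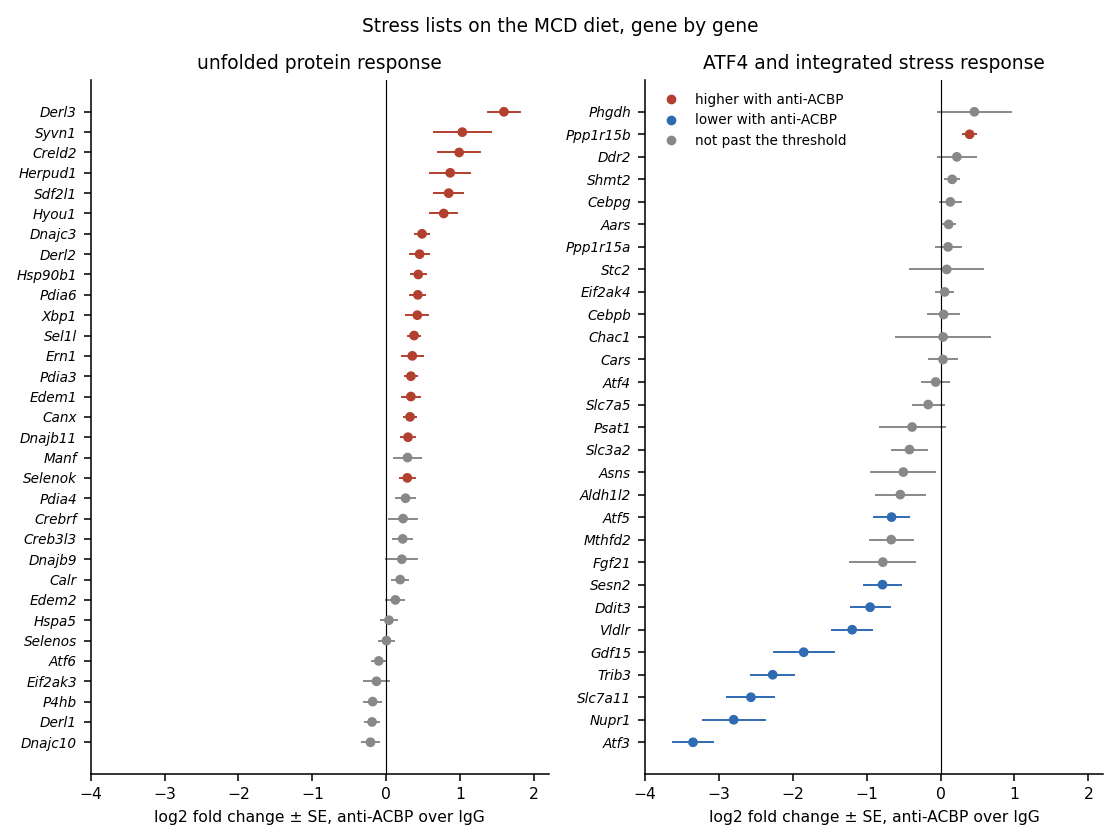
Log2 fold change of anti-ACBP over IgG with its SE for each tested member of the unfolded protein response list (left) and of the ATF4 and integrated stress response list (right), sorted by value. On the left 18 points are red and 0 blue, on the right 1 is red and 9 are blue, with Atf3 lowest.

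Promoter windows are shown for 3 lists in which most called members moved one way, from the called members that hold the searched motif and have the largest change over SE. The sequences are RefSeq windows on GRCm38.p6, the 250 bases before the annotated start, printed 5′ to 3′ on the strand of the gene. For the unfolded protein response the motif searched was the endoplasmic reticulum stress element, CCAAT followed after any 9 bases by CCACG, on both strands (reverse CGTGG and ATTGG). It was present in 9 of the 28 list members with a window (32.1%) and in 33 of all 27025 windows in the table (0.122%). Derl3 (chr10:75893148-75893397, plus strand) and Dnajc3 (chr14:118937682-118937931, plus strand) hold it in capitals:
Derl3: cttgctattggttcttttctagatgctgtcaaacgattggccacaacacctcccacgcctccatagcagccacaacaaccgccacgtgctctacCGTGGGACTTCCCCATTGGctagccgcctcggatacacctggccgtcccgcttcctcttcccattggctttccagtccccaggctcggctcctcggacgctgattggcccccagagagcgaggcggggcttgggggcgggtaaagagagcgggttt
Dnajc3: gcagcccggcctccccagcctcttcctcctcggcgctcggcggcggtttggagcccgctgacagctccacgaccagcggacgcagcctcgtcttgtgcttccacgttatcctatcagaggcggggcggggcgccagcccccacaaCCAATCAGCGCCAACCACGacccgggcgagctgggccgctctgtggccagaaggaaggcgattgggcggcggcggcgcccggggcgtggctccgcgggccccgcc
For the list of G2 and mitosis genes CCAAT (reverse ATTGG) and TTTGAA (reverse TTCAAA), the core of a cell cycle homology region, were searched. CCAAT was present in 25 of 30 list windows (83.3%) against 34.5% of all windows, and TTTGAA in 10 of 30 (33.3%) against 16.3%. Ect2 (chr3:27153879-27154128, minus strand) and Mki67 (chr7:135716380-135716629, minus strand) hold both, in capitals:
Ect2: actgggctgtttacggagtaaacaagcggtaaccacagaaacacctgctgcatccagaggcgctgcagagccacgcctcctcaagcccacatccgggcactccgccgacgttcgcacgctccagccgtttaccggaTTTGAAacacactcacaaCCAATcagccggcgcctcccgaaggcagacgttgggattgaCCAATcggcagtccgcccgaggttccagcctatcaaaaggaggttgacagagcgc
Mki67: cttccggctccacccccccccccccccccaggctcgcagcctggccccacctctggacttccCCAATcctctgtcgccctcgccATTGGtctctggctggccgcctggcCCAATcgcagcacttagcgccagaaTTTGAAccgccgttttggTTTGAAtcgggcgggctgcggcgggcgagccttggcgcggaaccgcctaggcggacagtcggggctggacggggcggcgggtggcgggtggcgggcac
For the interferon-induced genes a pair of GAAA with any 2 bases between them (reverse TTTC), the core of the interferon-stimulated response element, was present in 15 of 30 windows against 3.04% of all windows. Gbp2 (chr3:142620413-142620662, plus strand), which fell, and Bst2 (chr8:71537473-71537722, minus strand), which rose, both hold it, Bst2 with a pair of overlapping matches:
Gbp2: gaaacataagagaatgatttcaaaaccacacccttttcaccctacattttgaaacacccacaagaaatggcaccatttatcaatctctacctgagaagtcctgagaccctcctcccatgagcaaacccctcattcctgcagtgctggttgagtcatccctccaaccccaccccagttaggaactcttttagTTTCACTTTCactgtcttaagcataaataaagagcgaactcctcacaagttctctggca
Bst2: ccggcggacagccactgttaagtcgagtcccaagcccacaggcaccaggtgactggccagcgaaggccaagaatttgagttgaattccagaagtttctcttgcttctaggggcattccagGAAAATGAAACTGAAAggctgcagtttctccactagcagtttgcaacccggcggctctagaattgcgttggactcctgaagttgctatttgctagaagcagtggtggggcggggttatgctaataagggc
A match describes these letters and shows neither binding nor a cause of the change. CCAAT forms part of the longer stress element, so these counts overlap in sequence.

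Among other stress genes, more p53 targets and immediate early genes fell than rose, and antioxidant enzymes went both ways. Of the p53 targets, which arrest the cell cycle or promote cell death after damage, 0 of 32 tested members rose, 18 fell and 14 did not pass. Eda2r, a death domain receptor, had 23.4 with anti-ACBP and 142 with IgG (-2.60 ± 0.28), the antiproliferative Btg2 423 with anti-ACBP and 1435 with IgG (-1.76 ± 0.20) and the BH3-only protein Pmaip1 26.0 with anti-ACBP and 96.1 with IgG (-1.88 ± 0.21). Of the AP-1 and immediate early genes, which are induced within minutes of a stimulus, 0 of 34 tested members rose, 21 fell and 13 did not pass, led by Ier5 (-1.39 ± 0.11), Atf3 and Egr2 (-3.34 ± 0.30). For NRF2 targets and glutathione genes the counts were mixed, as 9 of 40 tested members rose, 17 fell and 14 did not pass (4 and 20 relative to column totals). Hmox1, Srxn1 and Slc7a11 led the falls, whereas mitochondrial thioredoxin reductase Txnrd2 (0.75 ± 0.098), catalase Cat (0.61 ± 0.11) and superoxide dismutase Sod1 (0.51 ± 0.095) rose. Among the glutathione S-transferases 8 of 23 tested members rose, 5 fell and 10 did not pass (5 and 7 relative to column totals), with Gstt1, Gsto1 and Gsta3 at 0.72 ± 0.12, 0.58 ± 0.10 and 0.54 ± 0.10 against Gstm2, Gsta2 and Mgst3 at -0.99 ± 0.099, -1.14 ± 0.16 and -0.58 ± 0.086. The metal-binding metallothioneins Mt1 and Mt2 had 1815 with anti-ACBP and 6126 with IgG, and 815 with anti-ACBP and 4194 with IgG. Of the heat shock genes 5 of 24 tested members rose, 2 fell and 17 did not pass (2 and 5 relative to column totals), beside 15% higher and 16.7% lower over all genes, and Hspa1b had 1.15 ± 0.30. Of the BCL2 family, caspases and death receptors 6 of 38 tested members rose, 18 fell and 14 did not pass (3 and 22 relative to column totals). The falls included Bcl2a1b and Bcl2a1d, near-identical survival genes of leukocytes, at -3.20 ± 0.26 and -2.99 ± 0.32.

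Of 7 necroptosis genes 0 rose and 3 fell, Tnfaip3, Zbp1 and the executioner Mlkl, at -1.86 ± 0.18, -1.21 ± 0.16 and -0.97 ± 0.15. Ripk1, Ripk3, Fadd and Cyld stood at 0.22 ± 0.093, -0.50 ± 0.22, -0.12 ± 0.14 and 0.06 ± 0.093 and did not pass. Of the ferroptosis genes 4 of 21 tested members rose, 7 fell and 10 did not pass (1 and 12 relative to column totals), and Gpx4, the peroxidase that protects membranes from this form of death, fell by 0.61 on the log2 scale (SE 0.094), with 11722 with anti-ACBP and 17845 with IgG.

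More cell cycle genes fell than rose in the lists of both phases. Of the G2 and mitosis genes 0 of 38 tested members rose, 33 fell and 5 did not pass, with a median of -1.33. Racgap1 and Ect2, which position the cleavage furrow, had 51.8 with anti-ACBP and 185 with IgG, and 116 with anti-ACBP and 337 with IgG (-1.84 ± 0.25 and -1.53 ± 0.21), and the kinase Plk1 had 35.9 with anti-ACBP and 159.7 with IgG. In the earlier phases the direction was not uniform. Of the G1 and S phase genes 4 of 41 tested members rose, 18 fell and 19 did not pass. The helicase subunits Mcm5 and Mcm2 fell by 1.35 ± 0.22 and 1.28 ± 0.23 on the log2 scale, and so did Ccnd1, cyclin D1, from which a liver cell enters the cycle, at 7479 with anti-ACBP and 17377 with IgG (-1.22 ± 0.22). The replication initiation factor Mcm10 moved the other way, at 5073 with anti-ACBP and 2489.9 with IgG (1.03 ± 0.17), as did cyclin E1, Ccne1 (1.10 ± 0.24). The list of cyclin-dependent kinase inhibitors also holds Rbl1 and Rbl2, pocket proteins related to the retinoblastoma protein. On it 1 of 10 tested members rose, 3 fell and 6 did not pass (0 and 4 relative to column totals). Cdkn1a, Rbl1 and Cdkn1c were lower and Rbl2 was higher (0.41 ± 0.099). The growth hormone, STAT5 and IGF axis held moves in both directions, since 5 of 26 tested members rose, 6 fell and 15 did not pass (5 and 8 relative to column totals). The receptor Ghr stood at 14553 normalized counts with anti-ACBP and 7101 with IgG (1.04 ± 0.13), the STAT5-opposing repressor Bcl6 at 1006 with anti-ACBP and 304 with IgG (1.73 ± 0.26) and Igf2r, which clears IGF2, at 1887 with anti-ACBP and 3115 with IgG (-0.72 ± 0.087). Of the EGF receptor family 3 of 14 tested members rose, 6 fell and 5 did not pass. The receptor Egfr rose (1.39 ± 0.28), and its feedback inhibitors Errfi1 (0.68 ± 0.13) and Lrig1 (0.73 ± 0.19) rose too, while the ligands Nrg1, Areg and Tgfa had -2.71 ± 0.21, -2.82 ± 0.51 and -0.41 ± 0.081. Rbl2 no longer passed the test relative to column totals.

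**Figure D4:**
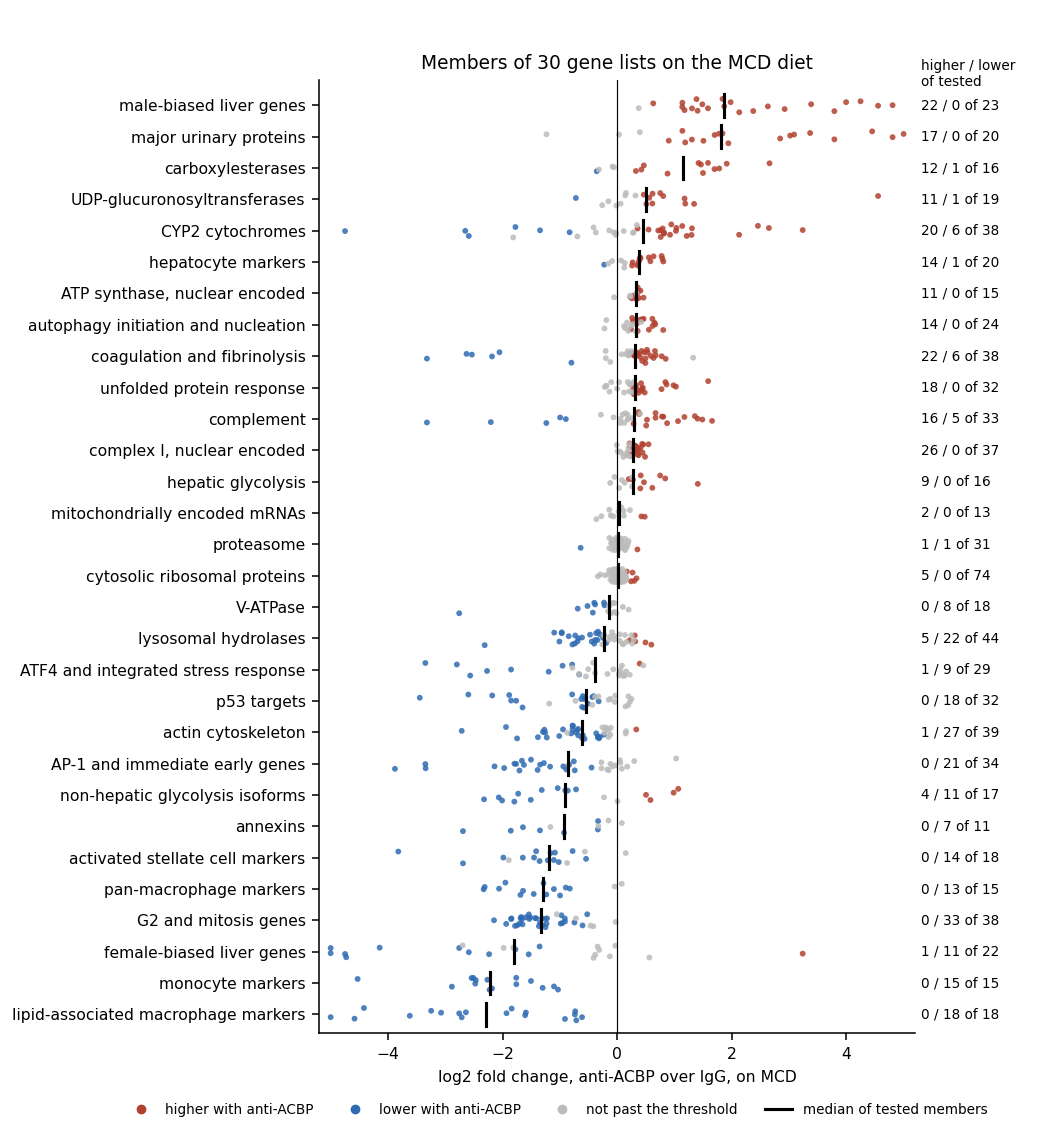
Log2 fold change of anti-ACBP over IgG for the tested members of 30 gene lists, sorted by the median (black bar), with the counts of higher and lower members at the right. Red and blue points passed the test, and the male-biased list sits highest and the lipid-associated macrophage list lowest.

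Lipid-associated macrophage and monocyte markers had the lowest medians of the 131 lists. Of the lipid-associated macrophage markers 0 of 18 tested members rose, 18 fell and 0 did not pass (median -2.28), of the monocyte markers 0 of 15 tested members rose, 15 fell and 0 did not pass (median -2.23), and of the pan-macrophage markers 0 of 15 tested members rose, 13 fell and 2 did not pass (median -1.29). The lipid-associated list includes the droplet coat Plin2 and the scavenger receptor Cd36, which other liver cells express too. Its counts are therefore not those of macrophages alone. The integrin subunit Itgb2, the fractalkine receptor Cx3cr1 and the receptor Ccr2 had 235 with anti-ACBP and 1337 with IgG, 40.4 with anti-ACBP and 298 with IgG, and 63.1 with anti-ACBP and 350.4 with IgG. The cathepsin Ctss, the NADPH oxidase subunit Cybb and lysozyme Lyz2 had 988 with anti-ACBP and 4905 with IgG, 307 with anti-ACBP and 1189 with IgG, and 1549 with anti-ACBP and 7791 with IgG. Of the markers of resident Kupffer cells 3 of 18 tested members rose, 5 fell and 10 did not pass. Timd4, a receptor of long-lived Kupffer cells, had 118 with anti-ACBP and 53.3 with IgG (1.14 ± 0.43), Il18bp 359 with anti-ACBP and 758 with IgG (-1.08 ± 0.097) and Clec12a 139 with anti-ACBP and 389 with IgG (-1.49 ± 0.15). C6, the other clear rise (1.40 ± 0.18), is also made by hepatocytes as a complement component. The difference between these lists was not tested. Timd4 no longer passed the test relative to column totals.

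Genes of antigen presentation by MHC class II fell, and lymphocyte markers mostly did not pass. Of the dendritic cell and MHC class II genes 0 of 17 tested members rose, 12 fell and 5 did not pass. The invariant chain Cd74 had 2068 with anti-ACBP and 5802 with IgG (-1.49 ± 0.11), and H2-Aa and H2-Eb1 had -1.50 ± 0.11 and -1.50 ± 0.12, 3 closely matching values. Of the T and NK cell markers 0 of 22 tested members rose, 3 fell and 19 did not pass (0 and 6 relative to column totals), namely Il7r (-2.22 ± 0.22), Prf1 (-1.82 ± 0.48) and Gzma (-1.28 ± 0.43). In the B and plasma cell list, 1 of 12 tested members rose, 1 fell and 10 did not pass (0 and 1 relative to column totals), Xbp1 rising and Sdc1 falling (-0.26 ± 0.070), and hepatocytes express both. Of the 6 neutrophil markers tested, Csf3r, Mmp8 and S100a8 fell (-1.31 ± 0.23, -2.72 ± 0.71 and -1.34 ± 0.47), and S100a9, Cxcr2 and Mmp9 did not pass (-1.37 ± 0.62, -0.48 ± 0.34 and -0.96 ± 0.46), while 5 fell relative to column totals. Of the classical MHC class I genes 1 of 14 tested members rose, 5 fell and 8 did not pass (0 and 8 relative to column totals), with H2-D1 at 25222 with anti-ACBP and 38163 with IgG (-0.60 ± 0.082) and H2-Q7 higher (0.39 ± 0.11). H2-Q7 no longer passed the test relative to column totals.

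Genes of soluble signals, their receptors and innate sensors mostly fell, with single rises among genes that hepatocytes and stroma express. Of the chemokines 2 of 24 tested members rose, 19 fell and 3 did not pass. Ccl2, which draws monocytes, had 28.3 with anti-ACBP and 273 with IgG, and the interferon-induced Cxcl10 110.4 with anti-ACBP and 581 with IgG (-2.40 ± 0.26), whereas Cxcl12, a chemokine of resting stroma, had 13662 with anti-ACBP and 10075 with IgG (0.44 ± 0.096) and Ccl25 183 with anti-ACBP and 82.3 with IgG (1.16 ± 0.19). Of the cytokines 1 of 21 tested members rose, 14 fell and 6 did not pass (0 and 14 relative to column totals). Tnf, tumour necrosis factor, and the interleukin-1 antagonist Il1rn had 10.5 with anti-ACBP and 61.9 with IgG, and 123 with anti-ACBP and 529 with IgG, with Lif at -3.24 ± 0.51. Il18 was the member that rose (0.26 ± 0.10). Cytokine receptors of leukocytes fell and some of hepatocytes rose, in a list of which 3 of 32 tested members rose, 18 fell and 11 did not pass. Il10ra and Csf1r, receptors of macrophages, had -1.47 ± 0.17 and -1.29 ± 0.16, and the interleukin-1 coreceptor Il1rap and the receptor of LIF, Lifr, had 4638 with anti-ACBP and 1998 with IgG, and 8348 with anti-ACBP and 3641 with IgG (1.21 ± 0.11 and 1.20 ± 0.16). Of the Toll-like receptors and adaptors 3 of 23 tested members rose, 10 fell and 10 did not pass (1 and 15 relative to column totals), with Tlr13 and Tlr2 at -2.73 ± 0.18 and -2.41 ± 0.21 and the adaptor Tirap at 0.48 ± 0.12. Of the NF-kB factors and inhibitors 1 of 17 tested members rose, 11 fell and 5 did not pass (0 and 13 relative to column totals), and the feedback inhibitors Tnip1 and Tnfaip3 and the subunit Nfkb2 led, at -1.64 ± 0.15, -1.86 ± 0.18 and -1.23 ± 0.14. Among inflammasome genes 2 of 16 tested members rose, 12 fell and 2 did not pass (1 and 13 relative to column totals). Nlrp3 and Mefv fell (-1.57 ± 0.25 and -1.91 ± 0.31), and Nlrp6, a sensor of epithelium, had 6647 with anti-ACBP and 2643 with IgG (1.33 ± 0.16). Interferon-induced genes were mostly lower, since 2 of 40 tested members rose, 25 fell and 13 did not pass (1 and 30 relative to column totals), led by Gbp2 and Zbp1 (-1.53 ± 0.14 and -1.21 ± 0.16), while Bst2, which tethers enveloped viruses, had 6227 with anti-ACBP and 3839.8 with IgG (0.70 ± 0.095). Of the chemokine receptors 1 of 15 tested members rose, 7 fell and 7 did not pass (0 and 7 relative to column totals), with Ccr1 at -2.98 ± 0.36 and Ackr4, a scavenging receptor, at 0.64 ± 0.25. Macrophage and monocyte markers moved with these lists, at the summed levels given above, and their part in the result was not tested. Il18 and Ackr4 no longer passed the test relative to column totals.

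Among complement and coagulation genes, plasma proteins of hepatocytes led the rises, and receptors and activators of other cells led the falls. Means on the complement and coagulation lists reached 310767 and 160601 normalized counts with anti-ACBP, and at such levels more genes rose than fell. Of the complement genes 16 of 33 tested members rose, 5 fell and 12 did not pass. The terminal components C8a and C8b had 16478 with anti-ACBP and 5877 with IgG, and 8706 with anti-ACBP and 2761 with IgG, and the C1 inhibitor Serping1 had 19252 with anti-ACBP and 11185 with IgG. The largest falls over SE, the receptors C5ar1 and C3ar1 (-2.20 ± 0.20) and the C1q chain C1qb (-1.24 ± 0.18), belong to genes that macrophages express. Of the coagulation and fibrinolysis genes 22 of 38 tested members rose, 6 fell and 10 did not pass (13 and 7 relative to column totals). Prekallikrein, Klkb1, the fibrinogen chain Fgb and protein C, Proc, had 0.85 ± 0.11, 0.64 ± 0.089 and 0.53 ± 0.078, and the urokinase system fell, with its receptor Plaur, urokinase Plau (40.9 with anti-ACBP and 254 with IgG) and tissue plasminogen activator Plat (27.9 with anti-ACBP and 162 with IgG). Serpins went both ways, since 16 of 33 tested members rose, 7 fell and 10 did not pass, with Serpina1e at 4.25 ± 0.30 and the intracellular Serpinb6a at -1.19 ± 0.12. Acute-phase proteins were mostly lower, as 4 of 30 tested members rose, 16 fell and 10 did not pass (2 and 17 relative to column totals). Orm2 and Saa2 had 399.8 with anti-ACBP and 2538 with IgG, and 364 with anti-ACBP and 1921 with IgG, and Itih4 and Saa4 rose (0.48 ± 0.12 and 0.70 ± 0.19). In IL-6 and STAT3 signalling 2 of 17 tested members rose, 1 fell and 14 did not pass (1 and 3 relative to column totals), Lifr and Pim3 (0.80 ± 0.28) rising and Osmr (-1.40 ± 0.19) falling. Pim3 no longer passed the test relative to column totals.

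In each class of matrix genes more members fell than rose. Of the 8 fibrillar collagens tested, Col1a1, Col1a2, Col3a1, Col5a1 and Col5a2 fell, with means of 456 with anti-ACBP and 1807 with IgG for Col1a1 and of 1407 with anti-ACBP and 4401 with IgG for Col3a1. Their log2 fold changes lay between -1.99 ± 0.27 for Col1a1 and -1.04 ± 0.22 for Col5a1. Col27a1, a collagen of cartilage and other tissues, moved opposite, at 1658 with anti-ACBP and 507 with IgG (1.71 ± 0.24), and Col5a3 and Col24a1 did not pass (0.71 ± 0.41 and -0.63 ± 0.47). Of the other collagens 1 of 20 tested members rose, 9 fell and 10 did not pass (0 and 10 relative to column totals), led by Col4a1 of basement membrane and Col6a3 of microfibrils (-1.86 ± 0.18 and -1.50 ± 0.17), and Col7a1 was the exception (1.20 ± 0.46). Of the enzymes that process and crosslink collagen 1 of 18 tested members rose, 10 fell and 7 did not pass (0 and 11 relative to column totals), with Loxl2, Tgm2 and Lox at -1.51 ± 0.19, -0.97 ± 0.12 and -2.69 ± 0.39. Matrix glycoproteins followed, as 2 of 36 tested members rose, 22 fell and 12 did not pass (0 and 23 relative to column totals). Tgfbi, an adhesion protein induced by TGF-beta, had 1992 with anti-ACBP and 3952 with IgG and nidogen Nid1 616 with anti-ACBP and 1948 with IgG, and fibronectin, Fn1, a plasma protein as well, had 64421 with anti-ACBP and 56602 with IgG (0.19 ± 0.064). Matrix proteases went down with the matrix, since 1 of 27 tested members rose, 20 fell and 6 did not pass, Adam8 among them (-3.06 ± 0.22) and Adam9 the exception (0.45 ± 0.063). Among protease inhibitors Timp1 and Timp2 fell (-3.82 ± 0.35 and -0.72 ± 0.15), and Timp3, Serpine2, Reck and A2m did not pass, at 0.21 ± 0.13, -0.02 ± 0.25, 0.60 ± 0.25 and -1.13 ± 0.77. Col7a1 and Fn1 no longer passed the test relative to column totals.

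Stellate cells, the liver's main source of collagen, were read from lists of their quiescent and activated markers. Of the activated markers 0 of 18 tested members rose, 14 fell and 4 did not pass and of the quiescent ones 0 of 17 tested members rose, 7 fell and 10 did not pass, and the quiescent markers summed to 22981 with anti-ACBP and 25109 with IgG. Vim, an intermediate filament of mesenchymal cells, had 813 with anti-ACBP and 2076 with IgG, and the quiescent markers Cygb and Hgf had -0.90 ± 0.15 and -0.95 ± 0.16. Of the 7 tested genes of platelet-derived growth factors, mitogens of these cells, and their receptors, 5 fell. Pdgfb had 45.9 with anti-ACBP and 187 with IgG (-2.03 ± 0.18), Pdgfa and Pdgfc had -0.82 ± 0.19 and -0.80 ± 0.25, and the receptors Pdgfrb and Pdgfra had -1.02 ± 0.11 and -1.10 ± 0.15. Pdgfd did not pass (-0.37 ± 0.23), and Pdgfrl rose at a low level (1.22 ± 0.41). In TGF-beta signalling 2 of 34 tested members rose, 14 fell and 18 did not pass (1 and 20 relative to column totals). Tgfb1 had 376 with anti-ACBP and 763 with IgG (-1.02 ± 0.16) and the binding protein Ltbp1 -0.93 ± 0.15, and Inhba, the activin A subunit, and its antagonist Fst rose (1.20 ± 0.28 and 0.78 ± 0.28). Fst no longer passed the test relative to column totals.

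In endothelial and biliary lists most members did not pass. Of the sinusoidal endothelial markers 3 of 21 tested members rose, 2 fell and 16 did not pass (0 and 5 relative to column totals). Lyve1 had 185 with anti-ACBP and 429 with IgG (-1.22 ± 0.30), and Rspo3, the Wnt enhancer of the central vein, had -0.39 ± 0.12, while Dnase1l3 rose (0.41 ± 0.15). Of the vascular endothelial markers 0 of 13 tested members rose, 5 fell and 8 did not pass (0 and 8 relative to column totals), including the leukocyte adhesion molecules Icam1 and Vcam1 (-1.16 ± 0.17 and -1.15 ± 0.20) and Sele (-3.51 ± 0.61). Of the cholangiocyte and ductular markers 1 of 18 tested members rose, 6 fell and 11 did not pass (0 and 8 relative to column totals), with Krt23, Cd24a and Bicc1 at -1.60 ± 0.29, -1.63 ± 0.36 and -0.98 ± 0.22. Of the 7 red cell genes tested the globins Hba-a1, Hba-a2, Hbb-bs and Hbb-bt and the synthase Alas2 rose, at 0.75 ± 0.30, 0.86 ± 0.31, 0.96 ± 0.37, 1.14 ± 0.42 and 0.80 ± 0.21, and 1 of them passed relative to column totals. Slc4a1 and Epb42 did not pass (1.38 ± 0.95 and -0.43 ± 0.79). Markers of adipocytes moved apart, Car3 and Adrb3 rising (1.26 ± 0.22 and 1.45 ± 0.26), Cidec and Plin4 falling (-3.19 ± 0.56 and -1.27 ± 0.42), and Adipoq and Cidea not passing at means under 10 normalized counts. The list summed to 91014 with anti-ACBP and 43245 with IgG, and its highest single member had 88850.5 and 37034. Hepatocytes also express Car3 and Cidec, so these values are not those of adipocytes alone. Acinar markers of the pancreas stood near 0, with Amy2a5 listed at 0 with anti-ACBP and at 11 with IgG, except Cela1, which rose (0.72 ± 0.18), and Cela2a (0.29 ± 0.27), and Ctrb1 did not pass, at -2.03 ± 2.10. Dnase1l3, Hba-a1, Hba-a2, Hbb-bs and Hbb-bt no longer passed the test relative to column totals.

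In each cytoskeletal family more genes fell than rose. Of the actin cytoskeleton genes 1 of 39 tested members rose, 27 fell and 11 did not pass (0 and 35 relative to column totals). Capg, an actin capping protein of macrophages, had 129.6 with anti-ACBP and 851 with IgG, the leukocyte coronin Coro1a 221 with anti-ACBP and 742 with IgG, and Tagln2 had -1.94 ± 0.16. The exception, Rdx, links actin to the canalicular membrane of hepatocytes and rose (0.33 ± 0.098). Annexins and S100 proteins, which bind calcium and membranes, fell in part. Of the annexins 0 of 11 tested members rose, 7 fell and 4 did not pass, with Anxa2 at 757 with anti-ACBP and 4889 with IgG (-2.69 ± 0.21), Anxa3 at -1.64 ± 0.13 and Anxa5 at -1.35 ± 0.12. Of the S100 proteins 2 of 12 tested members rose, 6 fell and 4 did not pass (1 and 8 relative to column totals), S100a4, S100a11 and S100a10 falling (-2.83 ± 0.25, -2.07 ± 0.20 and -1.56 ± 0.16) and S100a1 and S100a13 rising (0.44 ± 0.096 and 0.40 ± 0.11). Keratins 8 and 18, the filament pair of hepatocytes, fell, and Krt18 had 6296 with anti-ACBP and 16574 with IgG (-1.40 ± 0.12). In all 0 of 10 tested members rose, 5 fell and 5 did not pass in the keratin list, and Krt20 was listed at 0 with anti-ACBP and at 30.1 with IgG. Of the tubulins 2 of 15 tested members rose, 7 fell and 6 did not pass (1 and 9 relative to column totals), Tubb6 and Tuba8 falling (-1.39 ± 0.17 and -0.98 ± 0.15) and Tuba4a rising (0.65 ± 0.24). YAP and TEAD genes, which respond to tension and cell contact, gave a list in which 2 of 26 tested members rose, 10 fell and 14 did not pass (0 and 16 relative to column totals). Myof, Axl and Ajuba had -2.40 ± 0.23, -1.34 ± 0.13 and -1.80 ± 0.23. Macrophage markers moved with the actin list, at the levels given above, and their part in the result was not tested. Rdx, S100a13 and Tuba4a no longer passed the test relative to column totals.

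Genes of glucose breakdown were read from a hepatic list and a list of isoforms used outside hepatocytes, and the difference between them was not tested. The hepatic list includes pyruvate dehydrogenase subunits and ketohexokinase, which are not glycolytic enzymes. Of the hepatic glycolysis genes 9 of 16 tested members rose, 0 fell and 7 did not pass (5 and 2 relative to column totals). The pyruvate dehydrogenase subunit Dlat had 2425 with anti-ACBP and 1822 with IgG (0.41 ± 0.081), ketohexokinase Khk 17972 with anti-ACBP and 10675 with IgG (0.75 ± 0.15) and Pdhb, another subunit of pyruvate dehydrogenase, 6788 with anti-ACBP and 4434 with IgG (0.61 ± 0.12). Of the isoforms used outside hepatocytes 4 of 17 tested members rose, 11 fell and 2 did not pass (2 and 12 relative to column totals). The pyruvate kinase of proliferating cells and leukocytes, Pkm, had 645 with anti-ACBP and 2136 with IgG (-1.73 ± 0.14), and the hexokinase Hk3 and the phosphofructokinase Pfkp had -1.79 ± 0.21 and -0.86 ± 0.11. Unlike these, the muscle phosphofructokinase Pfkm rose (0.99 ± 0.11), with Pfkfb3 (1.07 ± 0.23). In gluconeogenesis 6 of 17 tested members rose, 3 fell and 8 did not pass (5 and 6 relative to column totals), with Fbp1 at 0.70 ± 0.14 and the glucagon receptor Gcgr at 0.45 ± 0.094. In glycogen metabolism 6 of 20 tested members rose, 3 fell and 11 did not pass (2 and 3 relative to column totals), with the liver isoforms Pygl and Gys2 at 1.09 ± 0.15 and 0.84 ± 0.22 and the brain isoform Pygb at -0.58 ± 0.18. In the pentose phosphate pathway Pgd and G6pdx, which make NADPH, fell (-0.80 ± 0.11 and -0.66 ± 0.16), and Rpe and H6pd rose (0.28 ± 0.10 and 0.23 ± 0.087). The other 4 tested, Pgls, Rpia, Tkt and Taldo1, did not pass, at 0.16 ± 0.11, 0.41 ± 0.23, 0.20 ± 0.091 and 0.05 ± 0.073. In insulin receptor signalling 12 of 35 tested members rose, 3 fell and 20 did not pass (3 and 7 relative to column totals), including the mTOR inhibitor Deptor (0.62 ± 0.10). Rpe and H6pd no longer passed the test relative to column totals.

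Nuclear genes of the respiratory chain mostly rose by small amounts that depended on the scaling, and most genes encoded in mitochondria did not pass. Of complex I 26 of 37 tested members rose, 0 fell and 11 did not pass (5 and 0 relative to column totals), of complexes III and IV 15 of 25 tested members rose, 1 fell and 9 did not pass (4 and 2 relative to column totals), and of ATP synthase 11 of 15 tested members rose, 0 fell and 4 did not pass (0 and 0 relative to column totals). Ndufa6, Ndufa9 and Ndufb5 of complex I had 0.55 ± 0.081, 0.46 ± 0.074 and 0.49 ± 0.081, and Uqcrc2 of complex III 0.38 ± 0.071. Medians of these lists lay at 0.27, 0.27 and 0.34, beside the shift of 0.19 between the scalings. Of the mitochondrially encoded mRNAs 2 of 13 tested members rose, 0 fell and 11 did not pass (0 and 5 relative to column totals), mt-Co3 and mt-Nd2 being those that rose (0.42 ± 0.11 and 0.48 ± 0.13). In the citric acid cycle list 11 of 24 tested members rose, 2 fell and 11 did not pass (2 and 7 relative to column totals). The rises were led by Idh1, a cytosolic isocitrate dehydrogenase outside the cycle itself, at 14494 with anti-ACBP and 9294 with IgG (0.64 ± 0.063). Of the genes of mitochondrial fusion, fission and mitophagy 6 of 22 tested members rose, 0 fell and 16 did not pass (4 and 5 relative to column totals), among them the fusion GTPase Opa1 (0.61 ± 0.084) and Bnip3 (0.73 ± 0.15). mt-Co3 and mt-Nd2 no longer passed the test relative to column totals.

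Few genes of the ribosome and the proteasome passed as reported and more fell relative to column totals, while more genes rose than fell at the start of autophagy and more fell than rose among lysosomal hydrolases. Of the cytosolic ribosomal proteins 5 of 74 tested members rose, 0 fell and 69 did not pass (0 and 23 relative to column totals), and of the proteasome genes 1 of 31 tested members rose, 1 fell and 29 did not pass (0 and 14 relative to column totals). Psmd8, a lid subunit, was the proteasome gene that fell, with 4871 with anti-ACBP and 7572 with IgG (-0.64 ± 0.086). Of the genes that initiate autophagy 14 of 24 tested members rose, 0 fell and 10 did not pass (6 and 1 relative to column totals), with the kinase Ulk2 at 2225 with anti-ACBP and 1273 with IgG and the lipid scramblase Atg9a at 3607 with anti-ACBP and 2619 with IgG. Conjugation genes stayed closer to 0, as 2 of 16 tested members rose, 1 fell and 13 did not pass (0 and 2 relative to column totals), Atg3 rising (0.25 ± 0.071) and Atg7 falling (-0.31 ± 0.12). Of the receptors that select cargo 4 of 16 tested members rose, 1 fell and 11 did not pass (1 and 5 relative to column totals), and Sqstm1, the p62 protein, had 16761 with anti-ACBP and 36129 with IgG. Of the lysosomal hydrolases 5 of 44 tested members rose, 22 fell and 17 did not pass (1 and 28 relative to column totals), with Lgmn at -0.97 ± 0.12 against Glb1 at 0.60 ± 0.10. Of the proton pump subunits 0 of 18 tested members rose, 8 fell and 10 did not pass (0 and 13 relative to column totals), with Atp6v0d2, an isoform of macrophages and osteoclasts, at 199.8 with anti-ACBP and 1353 with IgG (-2.76 ± 0.21) and the widely used Atp6v1b2 at -0.69 ± 0.081. Lysosomal membrane proteins went both ways, since 4 of 20 tested members rose, 5 fell and 11 did not pass (1 and 9 relative to column totals), Slc17a5, which exports sialic acid, at 0.87 ± 0.080 and Laptm5 of leukocytes at -1.69 ± 0.14. Among nutrient sensors 3 of 30 tested members rose, 5 fell and 22 did not pass (1 and 9 relative to column totals), Prkaa2, the AMPK subunit of hepatocytes, rising (0.59 ± 0.11) and Rragd and Mitf falling (-1.42 ± 0.19 and -0.71 ± 0.13). Macrophage markers fell in the same libraries, and their part in the lysosomal counts was not tested. These are transcript levels, and degradation was not measured. Atg3 no longer passed the test relative to column totals.

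Lipid genes went both ways. In de novo lipogenesis 15 of 24 tested members rose, 4 fell and 5 did not pass, with the citrate carrier Slc25a1 at 0.62 ± 0.079 and the sterol sensor Scap at 0.47 ± 0.058. Of the elongases and desaturases 7 of 18 tested members rose, 3 fell and 8 did not pass (5 and 4 relative to column totals). Scd1, the hepatocyte desaturase, had 89045 with anti-ACBP and 12779 with IgG (2.80 ± 0.52), whereas its paralog Scd2 fell (-0.78 ± 0.11), and Elovl2 (0.89 ± 0.15) and Elovl3 rose whereas Elovl7 fell (-3.08 ± 0.33). In mitochondrial fatty acid oxidation 11 of 27 tested members rose, 2 fell and 14 did not pass (4 and 4 relative to column totals), and in the peroxisome 11 of 27 tested members rose, 3 fell and 13 did not pass. Amacr and Nudt7, peroxisomal enzymes, had 0.64 ± 0.068 and 1.87 ± 0.21. Of the peroxins, which build peroxisomes, 4 of 16 tested members rose, 0 fell and 12 did not pass (2 and 2 relative to column totals), Pex6 and Pex7 first (0.81 ± 0.11 and 0.46 ± 0.073). For glycerolipid synthesis 0 of 18 tested members rose, 4 fell and 14 did not pass (0 and 8 relative to column totals), with Mogat2 at 31.5 with anti-ACBP and 236 with IgG (-2.89 ± 0.40). Lipid droplet and lipolysis genes went both ways, as 7 of 27 tested members rose, 6 fell and 14 did not pass (6 and 9 relative to column totals). Cidec, which enlarges lipid droplets, had 266 with anti-ACBP and 2436 with IgG (-3.19 ± 0.56), the droplet coat Plin2 18363 with anti-ACBP and 30617 with IgG (-0.74 ± 0.19) and lipoprotein lipase Lpl 607 with anti-ACBP and 3781 with IgG (-2.64 ± 0.21), while hepatic lipase Lipc rose (0.83 ± 0.11). In phospholipid metabolism 5 of 38 tested members rose, 10 fell and 23 did not pass (4 and 13 relative to column totals). Pcyt2 and Chpt1, of the pathways to phosphatidylethanolamine and phosphatidylcholine, had 0.81 ± 0.10 and 0.85 ± 0.14, and choline kinase Chka -1.42 ± 0.22. Of the apolipoproteins and genes of VLDL assembly 10 of 28 tested members rose, 1 fell and 17 did not pass (7 and 5 relative to column totals), the transfer protein Mttp among the rises (0.67 ± 0.089) and Apoa4 among the falls. Sphingolipid enzymes were lower on balance, since 4 of 41 tested members rose, 14 fell and 23 did not pass (0 and 22 relative to column totals), with the ceramide synthesis gene Sptlc2 at -1.01 ± 0.12 and the kinase Cerk at -1.74 ± 0.20.

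Genes of fatty acid uptake and of sterols went both ways too. Of the fatty acid binding and uptake proteins 6 of 18 tested members rose, 6 fell and 6 did not pass (6 and 7 relative to column totals), with the scavenger receptor Cd36 at 2078 with anti-ACBP and 7445 with IgG (-1.84 ± 0.15) and the macrophage isoform Fabp5 at -1.59 ± 0.26 against Acsm5 at 1.21 ± 0.11 and Slc27a5 at 1.31 ± 0.15. In cholesterol synthesis 7 of 22 tested members rose, 0 fell and 15 did not pass (6 and 2 relative to column totals), and in cholesterol uptake and export 3 of 25 tested members rose, 10 fell and 12 did not pass (1 and 13 relative to column totals). The sterol exporter Abcg1 fell (-1.28 ± 0.15). Of the PPAR family and targets 3 of 30 tested members rose, 6 fell and 21 did not pass (2 and 11 relative to column totals), Vnn3 among the falls (-0.48 ± 0.099). Bile acid synthesis rose for more genes than fell, as 9 of 18 tested members rose, 2 fell and 7 did not pass. The oxysterol hydroxylase Cyp7b1 had 3207 with anti-ACBP and 812 with IgG (1.98 ± 0.25), and Ch25h, which makes an oxysterol in macrophages, 4.38 with anti-ACBP and 12.9 with IgG (-1.54 ± 0.57). Of the bile acid and canalicular transporters 8 of 21 tested members rose, 3 fell and 10 did not pass (4 and 7 relative to column totals), with the basolateral exporters Slc51b and Abcc4 at -1.52 ± 0.24 and -2.35 ± 0.47 against the importer Slc10a1 at 1.65 ± 0.17. In FXR and FGF signalling 4 of 11 tested members rose, 2 fell and 5 did not pass (2 and 3 relative to column totals), the receptor Fgfr4, its coreceptor Klb and FXR itself, Nr1h4, rising (0.40 ± 0.085, 0.53 ± 0.11 and 0.40 ± 0.092). Of the omega hydroxylases and acyl-CoA thioesterases 8 of 19 tested members rose, 3 fell and 8 did not pass, with Cyp4f13 and Cyp4f14 at 1.05 ± 0.12 and 1.29 ± 0.18 and Acot9 at -1.07 ± 0.16. Nr1h4 no longer passed the test relative to column totals.

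Among detoxification genes, more carboxylesterases, glucuronosyltransferases and CYP2 cytochromes rose than fell, and the lists of male-biased and female-biased genes gave opposite counts. Of the carboxylesterases 12 of 16 tested members rose, 1 fell and 3 did not pass, Ces1g being the fall (-0.36 ± 0.12). Of the UDP-glucuronosyltransferases 11 of 19 tested members rose, 1 fell and 7 did not pass (10 and 2 relative to column totals), with Ugt2a3 and Ugt2b36 at 1.34 ± 0.12 and 0.80 ± 0.087. Among CYP2 cytochromes 20 of 38 tested members rose, 6 fell and 12 did not pass. Cyp2c67, Cyp2j9 and Cyp2c23 had 2.13 ± 0.14, 2.46 ± 0.23 and 1.21 ± 0.12, and the falls were led by Cyp2a22, Cyp2b9 and Cyp2b13, at -2.65 ± 0.27, -2.59 ± 0.29 and -4.75 ± 0.54. Several of these falls belong to genes that female mice express more. On the male-biased list 22 of 23 tested members rose, 0 fell and 1 did not pass, and on the female-biased list 1 of 22 tested members rose, 11 fell and 10 did not pass, with medians of 1.87 and -1.79. In the list of major urinary proteins 17 of 20 tested members rose, 0 fell and 3 did not pass. Cyp3a41a, a female-specific cytochrome, had 1.10 with anti-ACBP and 36.1 with IgG, with its log2 fold change at the end of the column, in a list of other cytochromes of which 5 of 18 tested members rose, 6 fell and 7 did not pass (2 and 6 relative to column totals). Of steroid metabolism genes 13 of 23 tested members rose, 2 fell and 8 did not pass (11 and 4 relative to column totals), Sult2a8 at 15902 with anti-ACBP and 4524 with IgG and Srd5a1 at 2375 with anti-ACBP and 1050.1 with IgG. Of the sulfotransferases 3 of 13 tested members rose, 3 fell and 7 did not pass (2 and 4 relative to column totals), Sult1e1, which inactivates oestrogens, standing at 25.7 with anti-ACBP and 5152 with IgG. In the list of xenobiotic and nuclear receptors 5 of 24 tested members rose, 1 fell and 18 did not pass (3 and 2 relative to column totals), thyroid hormone receptor Thrb at 0.90 ± 0.18. Of the alcohol and aldehyde dehydrogenases 9 of 27 tested members rose, 6 fell and 12 did not pass (7 and 8 relative to column totals), with Aox3 at 1.64 ± 0.21 and Aldh1b1 at -1.08 ± 0.078. Of the organic ion transporters 10 of 27 tested members rose, 3 fell and 14 did not pass (7 and 6 relative to column totals), Slc17a2 rising (1.52 ± 0.14) and Slc22a26 and Slc22a27 falling (-2.23 ± 0.33 and -1.54 ± 0.27).

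The nutrients that the diet lacks feed the methionine cycle, and its genes changed singly. In the methionine cycle and transsulfuration 6 of 31 tested members rose, 3 fell and 22 did not pass (4 and 5 relative to column totals). Besides Bhmt, the methyltransferase Inmt had 17915 with anti-ACBP and 6599.8 with IgG (1.44 ± 0.18), and Csad, which makes taurine, 7976 with anti-ACBP and 2544 with IgG (1.65 ± 0.28). Methionine adenosyltransferase of non-hepatic type, Mat2a, fell (-0.36 ± 0.14). Of the choline and betaine genes 4 of 18 tested members rose, 5 fell and 9 did not pass, Pipox, a sarcosine and pipecolate oxidase, at 7007 with anti-ACBP and 1952 with IgG (1.84 ± 0.18), sarcosine dehydrogenase Sardh at 0.50 ± 0.11, and the choline transporter Slc44a2 at -0.59 ± 0.11. In folate and serine metabolism 7 of 29 tested members rose, 2 fell and 20 did not pass (3 and 4 relative to column totals), with the folate importer Slc46a1 at 0.50 ± 0.078. Amino acid catabolism held more rises, as 21 of 48 tested members rose, 6 fell and 21 did not pass (9 and 6 relative to column totals). Ido2 and Haao of the tryptophan pathway had 2437 with anti-ACBP and 876 with IgG, and 12692 with anti-ACBP and 6263 with IgG (1.48 ± 0.12 and 1.02 ± 0.14), and the proline and ornithine enzymes Prodh2 and Oat moved apart (1.13 ± 0.16 and -1.29 ± 0.25). Of the urea cycle genes 4 of 14 tested members rose, 2 fell and 8 did not pass (1 and 3 relative to column totals), Otc at 11947 with anti-ACBP and 6311 with IgG (0.92 ± 0.13) and the ammonia transporter Rhbg at 201 with anti-ACBP and 879 with IgG (-2.13 ± 0.22). Of the amino acid transporters 4 of 28 tested members rose, 7 fell and 17 did not pass (2 and 10 relative to column totals). Slc7a1, Slc7a8 and Slc38a1, importers that hepatocytes use little, had -1.94 ± 0.22, -1.60 ± 0.19 and -1.76 ± 0.21, and Slc3a1, a partner of cystine transport, had 1.25 ± 0.16.

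Hepatocyte identity and zonation lists rose in part. Of the hepatocyte transcription factors 10 of 30 tested members rose, 1 fell and 19 did not pass (4 and 1 relative to column totals), including Foxa1 and Nr2f2 (0.79 ± 0.19 and 0.62 ± 0.14), and Gata6 fell (-0.39 ± 0.14). Of the periportal genes 10 of 24 tested members rose, 1 fell and 13 did not pass (7 and 2 relative to column totals), with Cyp2f2 at 50520.0 with anti-ACBP and 29809.8 with IgG (0.76 ± 0.15) and Aldh1b1 lower, at 4057 with anti-ACBP and 8591 with IgG. Pericentral genes had no common direction, as 6 of 23 tested members rose, 7 fell and 10 did not pass, Rgn and Cyp27a1 rising (0.87 ± 0.091 and 0.86 ± 0.15) and Slc13a3, Gstm3, Rhbg and Oat falling (-0.91 ± 0.11 and -1.25 ± 0.19 for the first pair). Of the hepatokines, hormones secreted by the liver, 6 of 29 tested members rose, 9 fell and 14 did not pass (3 and 10 relative to column totals). Enho, adropin, had 1161 with anti-ACBP and 409.7 with IgG (1.50 ± 0.28), Fetub 0.44 ± 0.095, and follistatin-like Fstl1 226 with anti-ACBP and 550.3 with IgG (-1.28 ± 0.19). Of the clock genes 5 of 28 tested members rose, 3 fell and 20 did not pass (3 and 5 relative to column totals), Csnk1e among the falls (-0.65 ± 0.17) and Per1 and Cry1 among the rises (0.56 ± 0.17 and 0.69 ± 0.20). In the glucocorticoid and fasting list 5 of 32 tested members rose, 7 fell and 20 did not pass (3 and 9 relative to column totals), with Hsd11b1 and G6pc rising (0.81 ± 0.14 and 0.94 ± 0.29) and Sgk1 falling (-0.69 ± 0.14). Counts of the clock list and of this list lie near the shares over all genes, 15% higher and 16.7% lower. Per1 no longer passed the test relative to column totals.

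Genes of iron, haem and selenium moved without a shared direction. Of the iron genes 5 of 34 tested members rose, 7 fell and 22 did not pass (3 and 12 relative to column totals), near the 15% higher and 16.7% lower over all genes. The transferrin sensor Tfr2 had 12301 with anti-ACBP and 6911 with IgG (0.83 ± 0.10), the protease Tmprss6, which restrains hepcidin, 0.40 ± 0.084, and the importer Slc11a2 -0.47 ± 0.072. In haem metabolism 7 of 21 tested members rose, 5 fell and 9 did not pass (6 and 8 relative to column totals), the synthesis enzyme Fech rising (0.40 ± 0.078) and the degrading oxygenase Hmox1 at 759.8 with anti-ACBP and 2844 with IgG (-1.90 ± 0.19). Of the selenoproteins 10 of 29 tested members rose, 8 fell and 11 did not pass (5 and 9 relative to column totals). Selenbp2, a selenium-binding protein of liver, had 8706 with anti-ACBP and 1405 with IgG (2.63 ± 0.47), Selenoo 0.60 ± 0.10, and the plasma peroxidase Gpx3 261 with anti-ACBP and 652 with IgG (-1.32 ± 0.17). Of the metallothioneins and zinc transporters 2 of 13 tested members rose, 3 fell and 8 did not pass (0 and 5 relative to column totals), the exporter Slc30a10 rising (1.15 ± 0.41). Among 8 aquaporins Aqp11 rose (0.69 ± 0.16), and Aqp7, the glycerol channel, and Aqp4 fell (-3.17 ± 0.39 and -0.83 ± 0.19). The other 5, Aqp1, Aqp3, Aqp5, Aqp8 and Aqp9, did not pass, at 0.00 ± 0.14, 0.88 ± 0.66, -1.77 ± 1.27, -0.30 ± 0.22 and -0.06 ± 0.090. Slc30a10 no longer passed the test relative to column totals.

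The antibody effect on MCD was set against that on chow, where the labels give the mice as healthy and the means rest on 4 libraries per group. Of 14604 members tested on both diets, 3392 (23.2%) had an effect that differed between diets, 1845 of them with a higher fold change on MCD and 1547 with a lower one. On chow 12% of these genes passed. Equal column totals subtract 0.19 from every log2 fold change on MCD and -0.14 on chow, so they bring the effects of the diets closer for genes that rose on MCD and fell on chow. Both diets changed 808 genes, and for 301 of these the directions were opposite and the effects differed. Of those, 226 rose on MCD and fell on chow, and 75 did the reverse. The group is led mostly by genes that hepatocytes express, several of them for secreted proteins. Mup3 had 3.79 ± 0.22 on MCD and -0.26 ± 0.078 on chow, and Serpina1e 4.25 ± 0.30 and -1.08 ± 0.22. The complement components C8a, C8b and C9 had 1.49 ± 0.13, 1.66 ± 0.16 and 1.36 ± 0.17 on MCD, and -0.46 ± 0.10, -0.74 ± 0.12 and -0.84 ± 0.11 on chow. Serping1 had 0.78 ± 0.076 on MCD and -0.30 ± 0.067 on chow, the carboxylesterase Ces3a 1.46 ± 0.14 and -0.39 ± 0.079, and the transporters Slc3a1 and Slc22a28 1.25 ± 0.16 and 3.20 ± 0.33 on MCD with -0.83 ± 0.098 and -0.79 ± 0.17 on chow. Only the myeloid receptor Lilr4b, of the 10 genes named, had the reverse order, at -2.90 ± 0.18 on MCD and 0.89 ± 0.28 on chow. For Dbi the effect on MCD exceeded that on chow by 0.78 ± 0.13 (adjusted p = 8.28e-08). Whole lists also gave opposite counts as reported, among them the unfolded protein response, complement and the male-biased list. Of the unfolded protein response 18 of 32 rose and 0 fell on MCD (8 and 4 relative to column totals). On chow 0 of 32 rose and 16 fell. Of complement 16 of 33 rose and 5 fell on MCD (13 and 6 relative to column totals), and 0 of 33 rose and 15 fell on chow. Of the male-biased list 22 of 23 rose and 0 fell on MCD under both scalings, and 0 of 23 rose and 13 fell on chow. The chow counts are those as reported, and the difference of a list between diets was not tested.

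**Figure D5:**
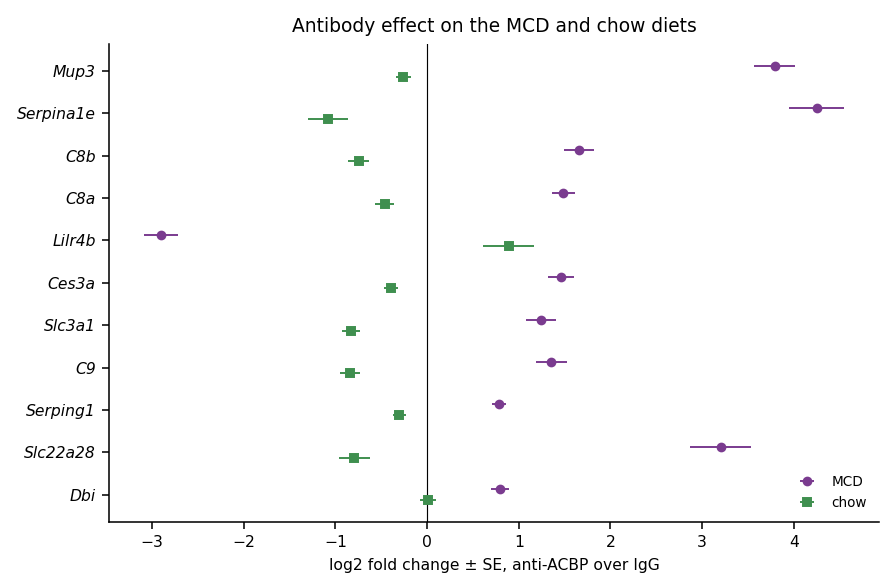
Log2 fold change of anti-ACBP over IgG with its SE on MCD (circles) and on chow (squares) for the 10 genes with opposite effects and the largest difference over its SE, and for Dbi. For 9 of the 10 the circle lies right of 0 and the square left of it, Lilr4b is reversed, and the square of Dbi lies at 0.01.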

How the data were processed

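Liver RNA of C57BL/6 mice was sequenced from strand-specific messenger RNA libraries, per the labels' protocols. Reads were processed with HISAT2 2.2.1, HTSeq 0.13.5, DESeq2 and the mm39 build, per the submitters' processing notes, which give no order or role. The deposited table of each diet holds group means of normalized counts, a signal per gene that is not a raw count, per the file headers. It also holds the authors' log2 fold change of antibody over isotype, which ends at -5 and 5, and a standard error, treated here as a score with no fixed range, per the file headers. The deposited p-values and adjusted p-values are rounded to 6 decimals, so those under 0.001 were recomputed from the fold change over its SE and adjusted by the Benjamini-Hochberg method. For genes at an end of the fold change column this used 5 or -5. Low values of the deposited MCD columns step in single reads of 5 libraries per group and those of the chow columns in single reads of 4, although the labels list 5 samples per group. The depth of single libraries is not given by these means, and no count model of single libraries was fitted here.

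Genes with a mean of at least 3 normalized counts were kept, and an adjusted p under 0.05 in the authors' deposited DESeq2 Wald test was the threshold. The difference between diets was tested gene by gene as the difference of the log2 fold changes over the root of the summed squared SEs (two-sided normal p, Benjamini-Hochberg over 14604 genes). The calculation was tested on simulated data. Gene lists are described by counts and medians only. The members, the 131 lists and the rules were chosen with earlier results of these data known. Named genes are the 15 highest and 15 lowest fold changes at a mean of 100 or more, the 10 largest gains and losses of group mean, the 10 largest SEs at a mean of 1000 or more, the 10 largest fold changes over SE, up to 3 called members per direction of each list (all members of lists with 8 or fewer tested), 10 genes with opposite effects on the diets, and the 3 genes on each side of the minimum. Hspa5, Atf4, Ddit3, Scd1 and Plin2 fall outside this rule and were chosen after their values were seen, as were Krt20, BC024386 and the symbol families. Some genes that the rule names are not reported here. Column totals scaling sets both group columns to the same total. Promoter windows came from RefSeq (GRCm38.p6), and were matched by symbol, since they are on another build than the files. Python 3.11.15, numpy 2.4.6, pandas 2.3.3, scipy 1.17.1 and matplotlib 3.10.9 were used.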

Additional observations from a re-analysis of the deposited data

Results flagged for a closer look

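Of the 3392 genes whose antibody effect on MCD differed from that on chow in a test of the difference itself (difference of the log2 fold changes in the authors' deposited tables over its SE, Benjamini-Hochberg adjusted), 11 are given here. They are the 10 genes with opposite effects on the diets and the largest difference over its SE, and Dbi. Values are the effect on MCD minus that on chow. The largest belonged to Serpina1e, at 5.33 ± 0.37, Mup3, at 4.05 ± 0.24, and Slc22a28, at 3.996 ± 0.37, all genes that hepatocytes express. Among plasma proteins, C8b differed by 2.40 ± 0.20, C9 by 2.197 ± 0.20, C8a by 1.95 ± 0.16 and the C1 inhibitor Serping1 by 1.09 ± 0.10. The transporter partner Slc3a1 differed by 2.08 ± 0.19 and the carboxylesterase Ces3a by 1.86 ± 0.16. Lilr4b, a receptor of myeloid cells, had a negative difference, at -3.79 ± 0.33. For Dbi, the gene of the antibody's target, the difference was 0.78 ± 0.13, with group means on chow of 24526 normalized counts with anti-ACBP and 24311 with IgG. The first 10 were selected for opposite effects, so the size of their differences is a description. All 11 kept their direction and their side of the threshold when both tables were scaled to equal column totals.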

How the results depend on the processing

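Scaling decided the split between rises and falls. With equal column totals 1391 genes rose and 5454 fell, so that 79.7% of called genes were lower, and recentring on the median of genes at 1000 normalized counts or more gave 1961 and 4243. A further requirement of an absolute log2 fold change of 1 left 2131 genes, 630 higher and 1501 lower. The total of called genes stayed between 4591 and 6845 under the other settings (adjusted p under 0.01, a minimum of 10, no minimum, adjustment over the members alone, both rescalings). The difference between diets was called for 2143 genes at adjusted p under 0.01 and for 5436 with equal column totals. The cause of these shifts was not tested. With equal column totals, 65 of the 68 single genes tried kept their direction and side of the threshold. Alb, at 0.22, no longer passed, Cyp2a4, at -2.00, did, and Myc, which passed under neither scaling, changed sign, at -0.14 against 0.05 as reported. The log2 ratio of group means, which has no ends, gave 9.74 for Serpina4-ps1, -5.86 for Ly6d, -7.32 for Sprr1a and -7.59 for Sult1e1. Of the 131 lists, 31 medians changed sign and 20 totals of called members moved by over 1.5 times with equal column totals. Of the 56 lists with more rises than falls as reported, 24 had more falls with equal column totals, and none of the 68 with more falls had more rises. No paired analysis was possible because the deposited columns are group means and carry no replicate numbers, and leaving out single replicates was not run for the same reason.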

Other observations

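Families defined by the letters that open a gene symbol were counted, without regard to function, for the 29 such families with at least 40 tested genes, against 15% higher and 16.7% lower over all genes (fold changes of the authors' deposited table). Symbols that start with Cd, mostly surface antigens of leukocytes, had the lowest median, -0.77, with 5 of 86 genes higher and 39 lower. Gpr genes, G protein-coupled receptors, had a median of -0.61, with 8 of 44 higher and 13 lower. Il symbols, which pool interleukins with their receptors and binding proteins, had a median of -0.46, with 5 of 50 higher and 19 lower.

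At the other end stood the odorant receptors, Olfr, with a median of 0.37 and 19 of 179 genes higher and 3 lower, and the vomeronasal receptors, Vmn, with a median of 0.35 and 13 of 90 higher and 2 lower. These are receptor genes of the olfactory system, and their median level over both groups was 6.32 normalized counts for Olfr and 7.83 for Vmn. At such levels the share over all genes is not a like background. Of all 3548 tested genes between 3 and 10 normalized counts, 94 rose and 178 fell. Zinc finger genes, Zfp, had 81 of 363 genes higher and 21 lower, and 31 higher and 54 lower with equal column totals.

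Among noncoding RNAs other than Neat1, BC024386 stood at 13672 normalized counts with anti-ACBP and 5345 with IgG (1.35 on the log2 scale). None of 60 small nucleolar RNAs passed in either direction by the deposited DESeq2 test, at a median level of 6.48 normalized counts.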
